A study of Mus musculus with 12 samples.

Results

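Oxidative phosphorylation genes encode the nuclear share of the 5 protein complexes of the mitochondrial inner membrane that burn reducing equivalents and make ATP. They were taken here as the genes whose single symbol on the array starts with Nduf, Uqcr, Cox4 to Cox8 or Atp5, or is Sdha, Sdhb, Sdhc or Sdhd, and each was represented by its brightest probe set. The rule found 84 genes among 12393 with 1 symbol. It found 33 subunits of complex I, 4 of complex II, 8 of complex III, 17 of complex IV (with Ndufa4, which is named for complex I but is part of complex IV) and 17 of complex V, and 5 further genes (Ndufaf1, Ndufaf3, Ndufaf4, Ndufaf5 and Ndufaf7) that are assembly factors of complex I and not subunits. A mean signal above the level filter was reached by 83 of them. Cox4i2, a complex IV isoform known from lung, had a mean signal of 14.9 and was not tested.

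RNA came from hearts of C57Bl/6 mice, 3 mice in each of 4 groups, each on its own Affymetrix array. Mice had either ligation of a coronary artery, the left anterior descending, to cause a myocardial infarction (MI), or a sham operation (sham). Wake hearts were operated on between zeitgeber time (ZT, hours after lights on) 13 and 15 and collected at ZT 23, sleep hearts between ZT 1 and 3 with collection at ZT 11. The labels give 8 h between surgery and collection, which fits only the end of each surgery window, and the interval of single mice is not given. Every mouse was operated on, so sham hearts are surgical controls and not untouched hearts. MI samples are labelled as infarcted myocardium. Sex and age, and the region taken from sham hearts, were not given in the sources used here. Time of collection and time of surgery changed together and cannot be told apart.

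Complex I (NADH dehydrogenase) and complex II (succinate dehydrogenase) pass electrons to ubiquinone, complex III to cytochrome c and complex IV to oxygen. Complexes I, III and IV pump protons, and complex V, the ATP synthase, uses the gradient to make ATP. The heart depends on this pathway for most of its ATP and is packed with mitochondria. Subunits encoded in the nucleus are joined to a few encoded by mitochondrial DNA, and assembly factors, which leave the finished complex, guide that joining.

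The arrays carried heart RNA: all 17 cardiomyocyte markers listed were measured and tested, and their summed signal lay between 104600 and 144700 on the 12 arrays. After MI over both times, 2 of the 17 were called higher (8.49% of all genes) and 0 lower (13.6%), and their median log2 difference was 0.12. Some other cell type markers differed between MI and sham hearts, and some were called only in wake hearts. The difference between the wake and sleep MI effects was called for 0% of all genes in limma, and so for 0 of these markers. Of 8 neutrophil markers tested 7 were called higher over both times (8.49% of all genes). Their summed signals were 1345 to 3293 in wake MI against 274 to 790 in wake sham hearts. In sleep hearts they were 1762 to 3200 in MI against 514 to 2057 in sham. Of 10 fibroblast markers 3 were called lower over both times (13.6% of all genes) and 4 in wake hearts (10.7%). Their summed signal in wake hearts was 9591 to 14880 in sham and 6892 to 8824 in MI. In sleep hearts 0 of the 10 were called, and their median difference was 0.01. Of 11 endothelial markers 4 were called higher (8.49% of all genes) and 1 lower (13.6%) over both times, and of 10 macrophage markers 1 was called lower. No marker of smooth muscle and pericytes (6 tested), adipose tissue (1), erythroid cells (2) or skeletal muscle (2) was called over both times. In wake hearts 3 of 5 atrial markers were called lower (10.7% of all genes). Their summed signals were 2233 to 15350 in wake sham and 1413 to 1921 in wake MI. Over both times and in sleep hearts 0 of the 5 were called. Their median difference was -3.14 in wake and 1.05 in sleep hearts. The beta-actin 3' to 5' signal ratio, which is higher in degraded RNA, averaged 2.60 ± 0.62 in wake MI against 1.79 ± 0.02 in wake sham hearts, and 2.40 ± 0.45 in sleep MI against 2.18 ± 0.28 in sleep sham hearts (mean ± SD, n = 3). How far these measures take part in the results below was not tested, except where the ratio was put into the fit. In bulk RNA, fewer cells of a type and less RNA per cell cannot be told apart.

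Subunits of the 5 complexes differed little between MI and sham hearts at the labelled 8 h. Over both times, 1 of 78 subunit genes was called (Cox8a, lower) and 2 of the 5 assembly factors were called, also lower (Ndufaf5 and Ndufaf3). Calls required limma's p, after Benjamini-Hochberg adjustment over all 8101 genes tested, to lie below 0.05. All differences are on the log2(signal + 16) scale. Thus 0 genes were called higher and 3 lower among 83, where 22.1% of all genes tested were called, 8.49% higher and 13.6% lower. The members' median difference was 0.02 against -0.06 for all genes, and 51 of 83 lay above 0, compared with 39.9% of all genes. None of the 83 differed by 0.5 or more in size, a size reached by 7.78% of all genes, and for 80 of the 83 the 95% interval lay within 0.5 of 0 on either side (70.7% of all genes).

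Most of these genes were bright, and bright genes as a whole moved less. A mean signal of 1000 or more was found for 73 members, and 49 lay in the top 1% of all probe sets. Among all genes this bright 16.7% were called, 52.4% lay above 0 and 86.5% had an interval within 0.5 of 0. Of the 73 bright members 0 were called (3 had an unadjusted p below 0.05), 49 lay above 0 and all 73 intervals were within 0.5. The 3 called members were all among the 10 tested members below 1000, where 14.2% of all genes that dim were called lower. Of these, Cox8a had a mean signal of 995.3, just under the cut, while Ndufaf3 (332.1) and Ndufaf5 (206.8) lay far below it. The count of 0 calls among bright members therefore depends on where the cut was placed. Probe sets bind with different strength, so these signals do not rank genes by transcript level.

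**Figure D1:**
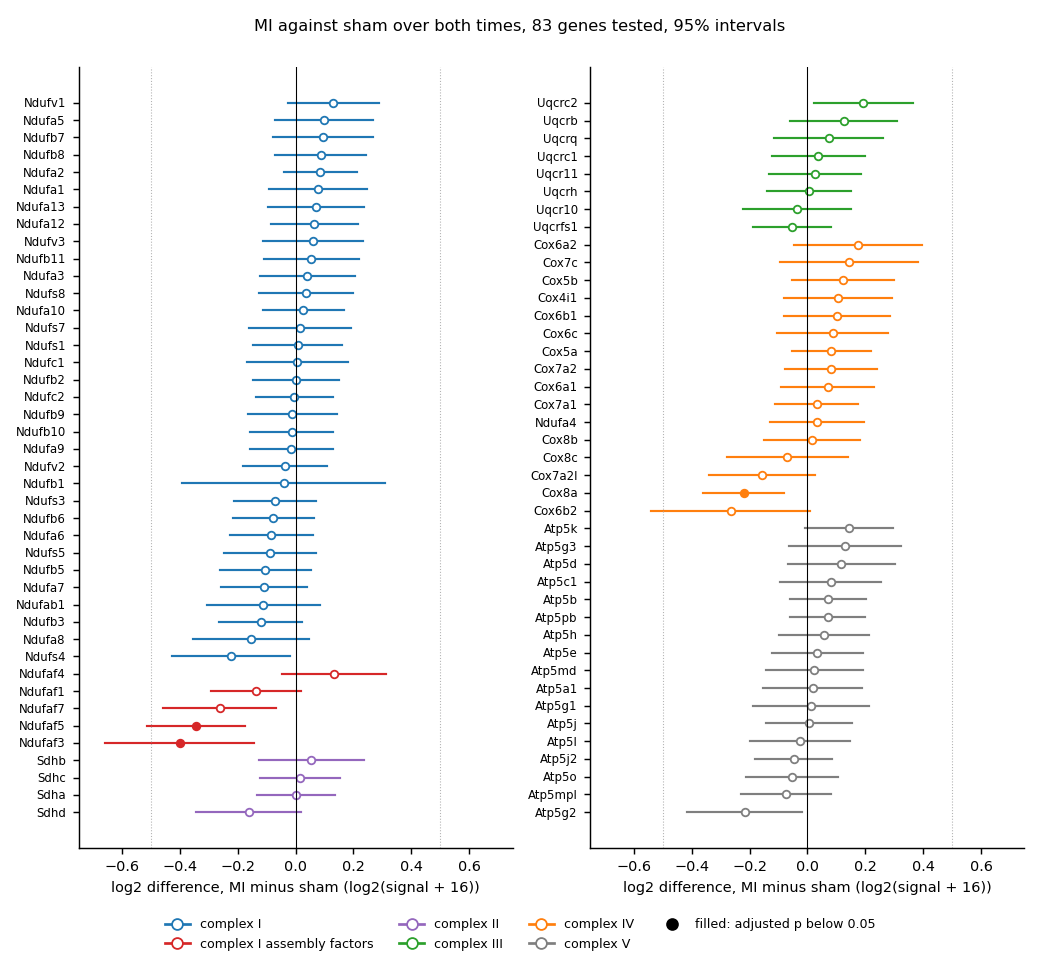
Log2 difference between MI and sham hearts over both times for the 83 genes tested, by complex (points, with 95% intervals from limma, and dotted lines at 0.5 on either side of 0). Filled points mark the 3 genes called, Ndufaf5, Ndufaf3 and Cox8a, all lower in MI hearts.

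By complex, the median difference over both times was 0.00 for complex I, 0.01 for complex II, 0.03 for complex III, 0.08 for complex IV and 0.02 for complex V, and -0.26 for the complex I assembly factors. Complex I had 0 of 33 genes called (22.1% of all genes), and 1 had an unadjusted p below 0.05 (36.4% of all genes). This was Ndufs4, an accessory subunit of the electron input arm, with -0.22 (SE 0.10, adjusted p = 0.108). Its signals were 2829, 2193 and 1827 in wake MI and 2869, 2691 and 2740 in wake sham, then 2361, 2426 and 2346 in sleep MI and 2675, 2304 and 2964 in sleep sham. The groups overlapped at both times, since wake MI replicate 1 lay within the wake sham range and sleep sham replicate 2 below all 3 sleep MI arrays. The 6 core subunits tested, which include those that carry the flavin and iron-sulfur centres, ranged from -0.07 to 0.13.

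The highest core value belonged to Ndufv1, the subunit that binds NADH. Its dimmer probe sets, with mean signals of 3666 and 3677, gave -0.02 (adjusted p = 0.840) and 0.11 (adjusted p = 0.364) over both times. The brightest gave signals of 5033, 3965 and 4664 in wake MI and 3844, 3841 and 3513 in wake sham. Every wake MI array thus lay above every wake sham array, as in 13.6% of all genes. In sleep hearts the 2 groups overlapped, at 4196, 4131 and 4431 in MI and 4415, 3853 and 4706 in sham. Its wake difference of 0.28 (SE 0.10) did not pass (adjusted p = 0.0757). The same held for the accessory subunit Ndufa2 in wake hearts, with 3291, 3212 and 3462 in MI against 2751, 2918 and 2835 in sham (0.23, SE 0.08, adjusted p = 0.0730).

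Complex II is the one complex with no subunit encoded in mitochondria, and its members also belong to the citrate cycle. Sdha, the flavoprotein, differed by 0.00 over both times (95% interval -0.13 to 0.14), and Sdhb, the iron-sulfur subunit, by 0.06 (-0.13 to 0.24). The membrane anchors, Sdhc and Sdhd, differed by 0.01 (-0.12 to 0.15) and -0.16 (-0.34 to 0.02). Sdhc signals were higher in every wake MI array (1764, 1707 and 2035) than in wake sham (1567, 1565 and 1695), as in 13.6% of all genes. In sleep hearts every MI array (1660, 1542 and 1730) was below every sham array (1884, 1782 and 1827), as in 15.3% of all genes. Neither difference passed (0.18, adjusted p = 0.176, and -0.16, adjusted p = 0.421).

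In complex III, 0 of 8 genes were called (22.1% of all genes) and 1 had an unadjusted p below 0.05 (36.4% of all genes). Uqcrc2, a core subunit, had the highest difference of all members over both times, 0.19 (SE 0.08, adjusted p = 0.0982). Its wake signals were 8025, 6690 and 6742 in MI and 5451, 6159 and 5777 in sham, without overlap (13.6% of all genes in this direction). In sleep hearts they were 6982, 6735 and 7597 in MI and 6904, 5669 and 7614 in sham, and overlapped. The other Uqcrc2 probe set, with a mean signal of 5443, gave -0.06 over both times (adjusted p = 0.585). The supernumerary subunit Uqcrb read 9092 to 13290 over the 12 arrays and differed by 0.13 (-0.06 to 0.31).

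Complex V had 0 of 17 genes called (22.1% of all genes), with 1 at an unadjusted p below 0.05 (36.4% of all genes). The 5 genes of the F1 head and stalk, which hold the catalytic sites, ranged from 0.02 to 0.12, and the 4 of the peripheral stalk from -0.05 to 0.07. The membrane part gene Atp5k was the highest at 0.14 (SE 0.07, adjusted p = 0.163). Its wake signals were 6500, 5530 and 6494 in MI and 5172, 5435 and 5434 in sham, without overlap (13.6% of all genes in this direction). The lowest was Atp5g2 at -0.22, described with the other genes of the c ring below.

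The complex I assembly factors stood at the low end. Ndufaf5, which modifies a core subunit during early assembly, fell in MI hearts by 0.34 on the log2 scale over both times (SE 0.08, adjusted p = 0.00747). Its signals were 203, 198 and 162 in wake MI against 250.1, 243 and 270.4 in wake sham, and 187, 166 and 164 in sleep MI against 202, 204 and 231 in sleep sham. MI arrays were below sham arrays at both times without overlap, a pattern in the lower direction that 7.06% of all genes showed and that 3 members showed (Ndufaf5, Ndufaf7 and Cox8a).

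Ndufaf3, an early assembly factor, fell by 0.40 (SE 0.12, adjusted p = 0.0291). It read 326, 322 and 197 in wake MI and 434, 372 and 432 in wake sham. In sleep hearts, where the groups overlapped, it read 279, 312 and 272 in MI and 348, 289 and 402 in sham. The lowest of its 12 values was wake MI replicate 3, the array with the highest beta-actin ratio (3.31).

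Ndufaf7, a methyltransferase for a core subunit, did not pass over both times (-0.26, SE 0.09, adjusted p = 0.0514) although its groups did not overlap at either time. It read 123, 116 and 103 in wake MI, 144, 136 and 168 in wake sham, 118, 109 and 117 in sleep MI and 119, 120.0 and 161 in sleep sham. Ndufaf1, part of the complex that builds the membrane arm, gave -0.14 (SE 0.07, adjusted p = 0.187). Ndufaf4, which works with Ndufaf3, was the one assembly factor above 0 by its brightest probe set, at 0.13 (SE 0.08, adjusted p = 0.273). Its other probe set, with a mean signal of 293, gave -0.45 (adjusted p = 0.00726).

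Cox8a, the isoform of a small complex IV subunit found in most tissues, fell by 0.22 (SE 0.07, adjusted p = 0.0276). Its signals were 940.1, 951 and 798 in wake MI against 1155, 1089 and 1112 in wake sham, and 935, 923 and 963 in sleep MI against 1050, 967 and 1060 in sleep sham. The groups did not overlap, but the highest sleep MI array and the lowest sleep sham array were close. With the log2 beta-actin ratio as a covariate none of the 3 calls was kept. The differences over both times then were -0.22 for Ndufaf5 (adjusted p = 0.149), -0.16 for Ndufaf3 (adjusted p = 0.481) and -0.16 for Cox8a (adjusted p = 0.238), and the share of all genes called went from 22.1% to 8.3%. The Ndufaf5 call was kept in 21 of 22 alternative analyses, the Ndufaf3 call in 15 and the Cox8a call in 14. Both the Cox8a and the Ndufaf3 call were lost on leaving out replicate 1 or 3 of either sham group, or replicate 1 of sleep MI. The Cox8a call was also lost without sleep MI replicate 2, and the Ndufaf3 call without sleep MI replicate 3.

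**Figure D2:**
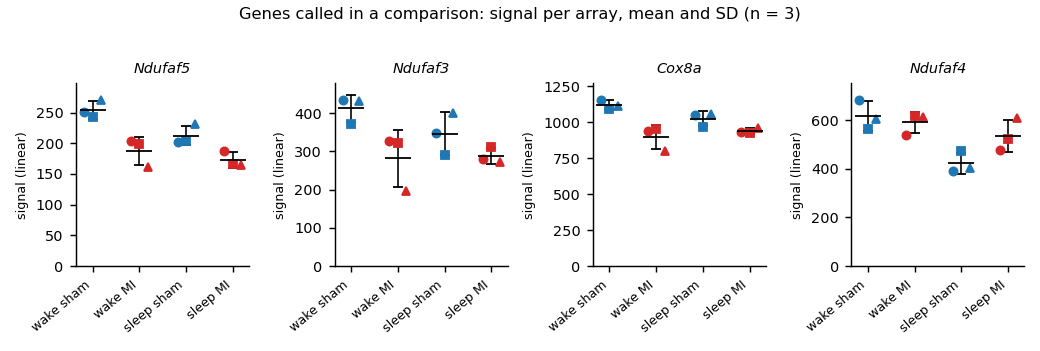
Signal per array (points, linear axis from 0) of the 4 genes called in any comparison, with mean and SD of 3 arrays in each group (circles, squares and triangles are replicates 1, 2 and 3). Ndufaf5 and Cox8a were lower in MI than in sham hearts at both times without overlap, and Ndufaf4 was higher in wake sham (565 to 683) than in sleep sham (392 to 473).

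Promoters of the 4 genes called in any comparison are shown because nuclear respiratory factor 1 (NRF1) and ETS-type factors such as GABP are the classical regulators of respiratory chain genes. Each sequence is the strand of the gene, 5' to 3', from 250 bases before the annotated start to 50 after it, from RefSeq on build GRCm38.p6. Capitals mark matches, on either strand, to the palindromic NRF1 consensus or to the ETS letters CCGGAAG. The windows are chr2:140170396-140170695 (+) for Ndufaf5, chr9:108567387-108567686 (-) for Ndufaf3, chr19:7217567-7217866 (-) for Cox8a and chr4:24897833-24898132 (+) for Ndufaf4.
Ndufaf5: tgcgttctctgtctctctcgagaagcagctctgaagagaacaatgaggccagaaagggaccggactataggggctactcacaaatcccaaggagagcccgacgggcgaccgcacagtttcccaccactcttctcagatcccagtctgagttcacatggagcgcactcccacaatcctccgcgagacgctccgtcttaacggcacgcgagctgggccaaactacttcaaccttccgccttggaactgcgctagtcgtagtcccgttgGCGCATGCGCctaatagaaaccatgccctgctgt
Ndufaf3: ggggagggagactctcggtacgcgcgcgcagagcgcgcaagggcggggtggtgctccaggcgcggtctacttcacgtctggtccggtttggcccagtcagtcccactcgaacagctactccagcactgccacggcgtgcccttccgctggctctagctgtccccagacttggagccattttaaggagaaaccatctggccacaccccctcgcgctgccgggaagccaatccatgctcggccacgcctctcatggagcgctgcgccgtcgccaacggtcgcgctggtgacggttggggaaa
Cox8a: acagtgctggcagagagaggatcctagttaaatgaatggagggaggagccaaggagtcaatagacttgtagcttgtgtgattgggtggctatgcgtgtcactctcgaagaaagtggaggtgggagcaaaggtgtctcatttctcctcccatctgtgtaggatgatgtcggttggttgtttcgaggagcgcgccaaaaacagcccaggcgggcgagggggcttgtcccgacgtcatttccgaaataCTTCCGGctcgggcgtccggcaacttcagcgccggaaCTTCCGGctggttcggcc
Ndufaf4: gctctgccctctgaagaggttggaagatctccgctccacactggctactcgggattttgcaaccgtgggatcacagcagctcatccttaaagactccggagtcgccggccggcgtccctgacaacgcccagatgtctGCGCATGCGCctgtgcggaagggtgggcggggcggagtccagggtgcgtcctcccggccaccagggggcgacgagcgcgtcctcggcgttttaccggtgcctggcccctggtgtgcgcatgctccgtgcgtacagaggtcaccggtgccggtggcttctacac
Counted from the start, with negative positions before it, the NRF1 match began at 16 in Ndufaf5 and at -113 in Ndufaf4, and the ETS matches in Cox8a began at -5 and 32. Ndufaf3 had no match to these letters in this window. Of the 84 members, 70 had a promoter in the table, and 16 of the 70 (22.9%) held the NRF1 consensus, against 5.19% of all promoters and 12.4% of those of tested genes. ETS letters were held by 25.7%, 9.93% and 21.1%, the E-box letters CACGTG of clock factors by 8.57%, 8.09% and 12.3%, and the YY1 consensus by 5.71%, 0.995% and 2.55%, in the same order. These are letter matches and not measured binding. The gene Esf1 starts 88 bases from Ndufaf5 on the opposite strand, and its MI difference over both times was 0.03 (SE 0.09, adjusted p = 0.856).

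In wake hearts alone the same 3 genes were called lower and 0 higher, where 18.5% of all genes were called and 10.7% called lower. The wake differences were -0.41 for Ndufaf5 (SE 0.11, adjusted p = 0.0207), -0.56 for Ndufaf3 (SE 0.17, adjusted p = 0.0357) and -0.32 for Cox8a (SE 0.09, adjusted p = 0.0289). All 5 assembly factors lay below 0 in wake hearts, and in 4 of them every MI array was below every sham array. Over all 83 genes, 8 had every MI array above every sham array (13.6% of all genes) and 12 had every MI array below (21.5%). With the ratio fitted the wake differences were -0.22 for Ndufaf5 (adjusted p = 0.400), -0.17 for Ndufaf3 (adjusted p = 0.676) and -0.23 for Cox8a (adjusted p = 0.320). The share of all genes called in wake hearts then was 3.38%. All 3 wake calls were lost on leaving out replicate 3 of either wake group or replicate 1 of wake sham (10.4% to 15.3% of all genes called). Without wake MI replicate 1, 5 genes were called (16.9% of all genes). Without sleep sham replicate 2 the count was 6 (17.7% of all genes), of which 3 (Ndufa2, Ndufv1 and Uqcrc2) were higher in MI.

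In sleep hearts limma called 0 of 83 genes, with 2.65% of all genes called, and 2 genes had an unadjusted p below 0.05 (17.1% of all genes). They were Ndufaf4, at 0.33 (SE 0.12, adjusted p = 0.173), and Ndufaf5, at -0.28 (SE 0.11, adjusted p = 0.227). On the lower side Sdhc came next and is given above, ahead of Ndufaf3 at -0.25 (adjusted p = 0.507). On the higher side Sdha was at 0.10 (adjusted p = 0.598) and Atp5d, of the F1 stalk, at 0.13 (adjusted p = 0.647). The difference between the wake and sleep MI effects was called for 0 of 83 members and for 0% of all genes in limma. An unadjusted p below 0.05 was found for 3 members (10.5% of all genes). These were Sdhc at 0.34 (SE 0.13, adjusted p = 0.382), Ndufa2 at 0.28 (SE 0.12, adjusted p = 0.428) and Ndufaf4 at -0.39 (SE 0.17, adjusted p = 0.441). Behind them came Ndufv1 at 0.30 (adjusted p = 0.490), Sdhd at -0.29 (adjusted p = 0.558) and Sdha at -0.21 (adjusted p = 0.581). The absence of sleep calls is therefore not shown to differ from the wake result.

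The spread between arrays was shared by most of the bright members. The mean of log2(signal + 16) over the 83 genes was 11.75 ± 0.09 in wake MI, 11.76 ± 0.05 in wake sham, 11.78 ± 0.05 in sleep MI and 11.78 ± 0.18 in sleep sham (mean ± SD, n = 3 arrays). The group means thus lay closer together than the sleep sham arrays, which ranged from 11.58 to 11.90. Sleep sham replicate 2 was the lowest of its group in 78 of 83 genes (38.1% of all genes), and replicate 3 the highest in 51 (36.5% of all genes). Replicate 2 was lowest in 72 of the 73 members with a mean signal of 1000 or more and in 6 of the 10 below it. Equally bright genes outside the module were not compared. Of the 227 probe sets in the top 1% by mean signal, 49 were those of members. The signal at the 99th percentile of an array was lowest on sleep sham replicate 2 (4059) and highest on sleep sham replicate 3 (4950), so the top of the signal range moved with these genes, and its part was not tested. After group means were taken out, the median correlation between 2 members over the 12 arrays was 0.70, against 0.00 for all genes. This is a description, since all genes share the arrays. Without sleep sham replicate 2 the members' median moved from 0.01 to -0.10 for sleep MI against sleep sham and from 0.02 to -0.03 over both times. Quantile normalization, which gives all arrays the same distribution, moved it to -0.02 and -0.03, so the sign of the small median shift differed between these settings.

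**Figure D3:**
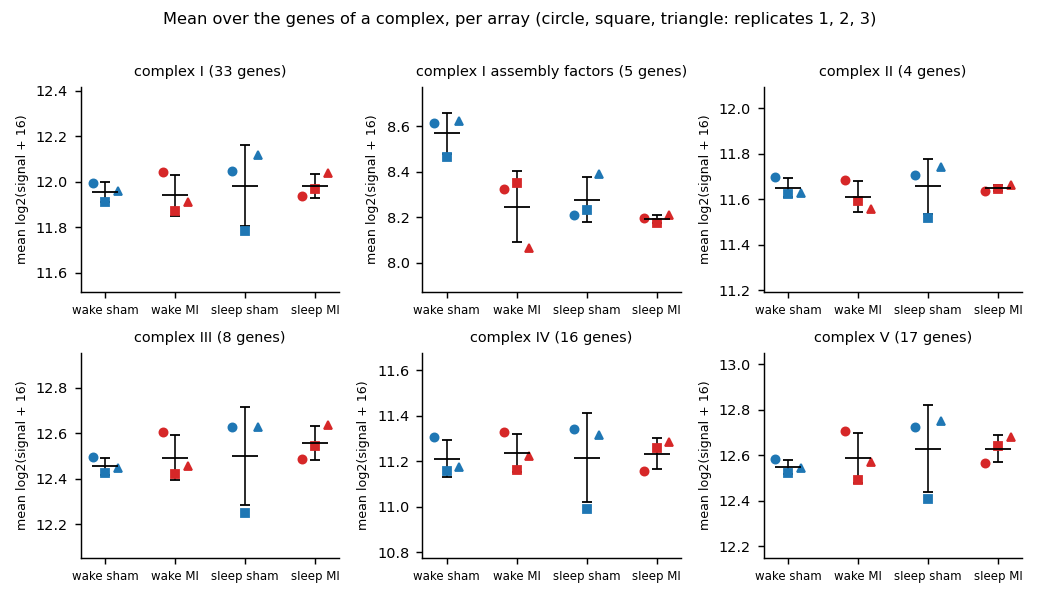
Mean log2(signal + 16) over the genes of each complex on each of the 12 arrays (circles, squares and triangles are replicates 1, 2 and 3, blue sham and red MI), with mean and SD of each group. In complexes I to V sleep sham replicate 2 lay lowest of its group, and the assembly factors ranged from 8.47 to 8.62 in wake sham against 8.07 to 8.35 in wake MI.

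Of the isoform genes of complexes IV and V, Cox8a was the one called between MI and sham hearts. Heart and muscle isoforms Cox6a2, Cox7a1 and Cox8b differed over both times by 0.18 (95% interval -0.05 to 0.40), 0.03 (-0.11 to 0.18) and 0.02 (-0.15 to 0.18). Their more widely expressed partners Cox6a1 and Cox7a2 differed by 0.07 (-0.09 to 0.23) and 0.08 (-0.08 to 0.24), and only the partner Cox8a was called, lower. The difference between Cox8a and Cox8b was not itself tested. Cox8b read 7408 to 9813 over the 12 arrays. Cox4i1, the common form of the regulatory subunit, differed by 0.11 (-0.08 to 0.29), and Cox6b1 by 0.10 (-0.08 to 0.28).

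Cox7a2l, grouped here with the other isoform genes of complex IV, was at -0.16 (-0.34 to 0.03). In wake hearts it read 1151, 1037 and 1124 in MI and 1333, 1172 and 1284 in sham, without overlap (21.5% of all genes in this direction). The testis isoform Cox6b2 was dim, at 17.6 to 50.0 over the 12 arrays, and gave -0.27 (-0.54 to 0.01). Cox8c, likewise known from testis, gave -0.07 (-0.28 to 0.14) at 44.3 to 73.3. Ndufa4 differed by 0.03 (-0.13 to 0.19).

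The 3 genes for the c ring, the rotor of complex V, encode the same mature protein with different import sequences. Atp5g2 was at -0.22 over both times (SE 0.09, adjusted p = 0.107). It read 3381, 2605 and 2303 in wake MI against 3259, 3235 and 3264 in wake sham, and 2867, 3071 and 2620 in sleep MI against 3160, 2880 and 3694 in sleep sham. The groups overlapped at both times. Atp5g1 was at 0.01 (-0.19 to 0.21) and Atp5g3 at 0.13 (-0.06 to 0.32).

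**Figure D4:**
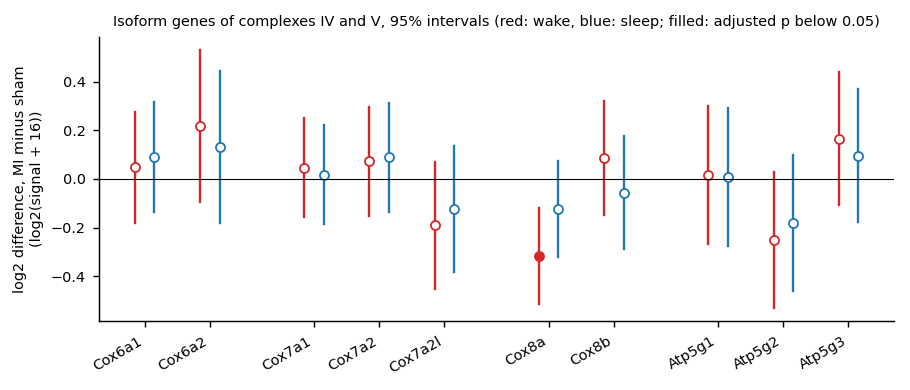
Log2 difference of MI from sham for isoform genes of complexes IV and V in wake (red) and sleep (blue) hearts, with 95% intervals from limma. Cox8a in wake hearts (-0.32) is the one filled point, which marks a call.

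Probe sets of 1 gene did not always give the same answer. When 13576 probe sets were fitted 1 by 1, 42 members had several, and over both times they differed in sign for 23 and in call for 7. How often the probe sets of other genes differed was not counted. Those that differed in call were Atp5a1, Cox8a, Ndufab1, Ndufaf4, Ndufs4, Ndufs8 and Uqcr10. Of the 119 member probe sets with a mean signal of 1000 or more 1 was called (lower), while of the 26 dimmer ones 8 were called lower and 1 higher. Among all genes, each by its brightest probe set, 6.97% at 1000 or more and 14.2% below 1000 were called lower. Shares over all probe sets were not counted. For Uqcr10, a supernumerary subunit of complex III, the brightest probe set gave -0.04 (adjusted p = 0.815), and probe sets with mean signals of 823 and 371 gave -0.26 (adjusted p = 0.0322) and -0.43 (adjusted p = 0.00214). For Atp5a1, the catalytic-head alpha subunit, the brightest gave 0.02 (adjusted p = 0.900), and one with a mean signal of 210.0 gave 0.55 (adjusted p = 0.00509). The second Ndufaf4 probe set, with a mean signal of 293, gave -0.45 (adjusted p = 0.00726), opposite in sign to the first. For Ndufs4 a probe set with a mean signal of 122 gave -0.41 (adjusted p = 0.0135), for Ndufs8 one of 2838 gave -0.27 (adjusted p = 0.0262), and for Ndufab1 one of 33.2 gave -0.49 (adjusted p = 0.0336). The second probe set of Cox8a gave -0.14 (adjusted p = 0.153). Between wake and sleep sham hearts 3 of 145 member probe sets were called (1.52% of all genes). Besides that used for Ndufaf4 (0.53, adjusted p = 0.0483) these were the Atp5a1 probe set with a mean signal of 210.0, at -0.93 (adjusted p = 0.0140), and the Uqcr10 probe set with a mean signal of 371, at 0.58 (adjusted p = 0.0211). Both had the opposite sign to their MI difference over both times, and the wake sham arrays enter both comparisons. Which transcripts these probe sets read was not tested. Those that differed in sign were Atp5c1, Atp5h, Atp5j2, Atp5o, Atp5pb, Cox6a1, Ndufa5, Ndufa12, Ndufab1, Ndufaf4, Ndufb2, Ndufb9, Ndufb11, Ndufc1, Ndufs4, Ndufs7, Ndufs8, Ndufv1, Ndufv2, Sdhc, Sdhd, Uqcrb and Uqcrc2.

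Genes that build the complexes or maintain mitochondrial DNA were called lower after MI more often than the subunits were called, by count. The groups were not tested against each other and were not matched for signal. A mean signal of 1000 or more was found for 73 members, while 15 mitochondrial DNA genes summed to 3263 to 3470 in wake MI. Of member probe sets below 1000, 8 of 26 were called lower over both times, against 1 of 119 brighter ones. Among all genes, each by its brightest probe set, these shares were 14.2% and 6.97%. How far signal level takes part in this contrast was not tested. Of 33 assembly factors and translation activators outside the symbol rule, 10 were called lower over both times (13.6% of all genes) and 0 higher (8.49% of all genes), with a median of -0.21 and 17 at an unadjusted p below 0.05 (36.4% of all genes). The lowest adjusted values were those of Sdhaf4, an assembly factor of complex II (-0.61, SE 0.13, adjusted p = 0.00457), Cox16 (-0.68, SE 0.16, adjusted p = 0.00761) and Coa6 (-0.45, SE 0.10, adjusted p = 0.00827), both of complex IV. Sdhaf4 read 716 ± 173 in wake MI, 1264 ± 167 in wake sham, 880 ± 127 in sleep MI and 1170 ± 243 in sleep sham (mean ± SD, n = 3). In wake hearts 8 of 33 were called lower (10.7% of all genes), among them Sdhaf2 (-0.64, adjusted p = 0.00841). In sleep hearts limma called 0 (2.65% of all genes), with 5 at an unadjusted p below 0.05 (17.1% of all genes). The count over both times was 5 without wake sham replicate 1 or 3 (17.1% and 16.6% of all genes called in either direction). It was 6 without sleep sham replicate 3 (16.2%), and 1 with the beta-actin ratio fitted too (8.3%). The wake count was 3 on leaving out replicate 3 of either wake group or replicate 1 of wake sham (10.4% to 15.3%).

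Of 15 genes of mitochondrial DNA maintenance and transcription, 8 were called lower over both times and 0 higher, with a median of -0.29, where 13.6% of all genes were called lower and the median of all genes was -0.06. Tfam, which packages mitochondrial DNA and starts its transcription, fell by 0.43 (SE 0.08, adjusted p = 0.00152). Its signals were 182 ± 13.8 in wake MI against 284 ± 8.66 in wake sham, and 191 ± 19.0 in sleep MI against 232 ± 18.6 in sleep sham, without overlap at either time. Mterf2 gave -0.46 (adjusted p = 0.00330) and the ribosomal RNA methyltransferase Tfb1m -0.41 (adjusted p = 0.00365). In wake hearts 6 were called lower (10.7% of all genes). This count was 3 without wake MI replicate 2 (12.8% of all genes called in either direction) or without wake sham replicate 3 (10.4%). In sleep hearts, where 2.65% of all genes were called, 1 was called (Mterf2, -0.66, adjusted p = 0.0166). With the beta-actin ratio fitted too 4 were called over both times (8.3% of all genes) and 1 in wake hearts (3.38% of all genes). The 1 subunit encoded in mitochondrial DNA that could be read, ND5 of complex I, differed by 0.07 (95% interval -0.20 to 0.34).

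Of 18 nuclear regulators of these genes tested, 5 were called higher (8.49% of all genes) and 2 lower (13.6% of all genes) over both times. The share called lower was near that of all genes. Ppargc1a, the coactivator PGC-1 alpha that drives mitochondrial biogenesis, rose by 1.12 (SE 0.12, adjusted p = 4.01e-05) from 540 ± 78.9 in wake sham to 1255 ± 280 in wake MI and from 553 ± 13.5 in sleep sham to 1186 ± 254 in sleep MI. Myc rose by 1.91 and Hif1a, the hypoxia-inducible factor subunit, by 1.03. The related coactivator Ppargc1b fell by 0.49 (adjusted p = 0.0379), and Gabpa, an ETS factor, by 0.22 (adjusted p = 0.0428). The 2 lower calls were lost, 1 or both, without any 1 of the 12 arrays, and the mean of its probe sets turned the Gabpa value to 0.01. In sleep hearts Ppargc1a, Myc and Hif1a were called higher (2.65% of all genes called in either direction). With the beta-actin ratio fitted too, 3 regulators stayed called higher over both times (8.3% of all genes called in either direction).

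Among 11 carriers of phosphate, adenine nucleotides and protons 1 was called over both times (22.1% of all genes). It was the ATP-Mg/phosphate carrier Slc25a25, higher by 1.01 (SE 0.14, adjusted p = 0.000257). Its signal was too low for the stricter filter at the 60th percentile, where it was not tested. Of 18 subunits and electron carriers that the symbol rule leaves out, such as cytochrome c, limma called 0 over both times (22.1% of all genes). An unadjusted p below 0.05 was found for 3 (36.4% of all genes). In wake hearts 1 was called (18.5% of all genes), the ubiquinone synthesis gene Coq3 (-0.55, adjusted p = 0.0145). The Coq3 call was lost without replicate 1 or 3 of wake sham. Of 11 genes of mitochondrial defence against reactive oxygen limma called 0 over both times (22.1% of all genes). An unadjusted p below 0.05 was found for 1 (36.4% of all genes). In wake hearts 1 was called (18.5% of all genes), Idh2 (0.38, adjusted p = 0.0391). The Idh2 call was lost on leaving out wake MI replicate 1, sleep MI replicate 2, or replicate 1 or 3 of wake sham.

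**Figure D5:**
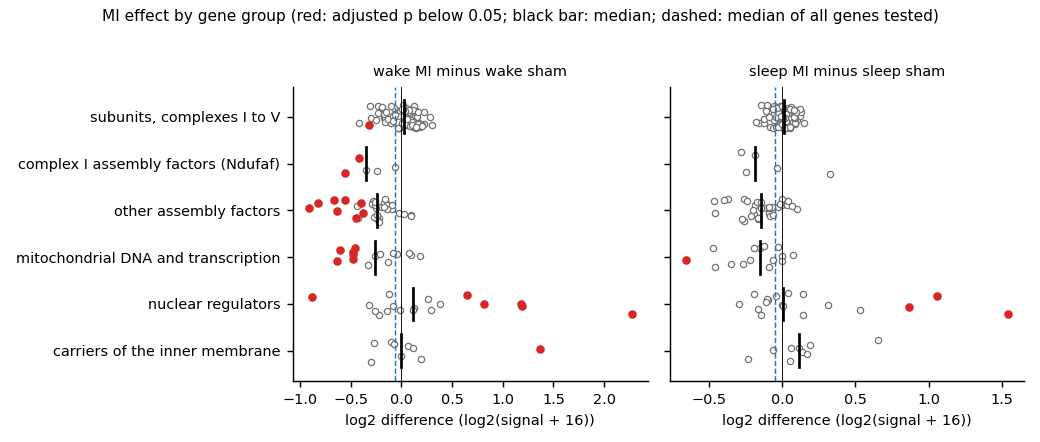
Log2 difference of MI from sham for single genes (points, red where called), with the median of each group (black bar) and of all genes tested (dashed line), in wake (left) and sleep hearts (right). The 78 subunits gather around 0, while 8 of 33 other assembly factors and 6 of 15 mitochondrial DNA genes were called lower in wake hearts, and 0 and 1 in sleep hearts. The groups were not matched for signal level.

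Between sham hearts collected at ZT 23 and ZT 11, 1 of 83 genes was called, Ndufaf4, higher in wake hearts by 0.53 (SE 0.12, adjusted p = 0.0394), with 1.52% of all genes called and 0.42% called higher. Its signals were 683, 565 and 604 in wake sham and 392, 473 and 405 in sleep sham, with no overlap (11.9% of all genes in this direction). After MI it read 541, 619 and 612 in wake hearts and 478, 523 and 607 in sleep hearts, and the groups overlapped. The call was kept in 10 of 22 alternative analyses. It was lost on leaving out replicate 2 of either MI group, replicate 1 or 3 of wake sham, or any 1 sleep sham array. All 5 assembly factors lay above 0 in this comparison, among them Ndufaf1 at 0.28 (adjusted p = 0.215) and Ndufaf5 at 0.24 (adjusted p = 0.361). The wake sham arrays serve in this comparison and in the wake MI comparison, so the higher wake sham level of these genes enters both. On the lower side none was called with the probe sets used, and the lowest unadjusted p belonged to Ndufa2 (-0.22, adjusted p = 0.240), followed by Atp5e, of the F1 stalk (-0.25, adjusted p = 0.316) and Sdhc (-0.19, adjusted p = 0.404).

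Between MI hearts at the 2 times limma called 0 of 83 genes and 0.0741% of all genes, and 1 member had an unadjusted p below 0.05 (6.67% of all genes). It was Cox7c, a small complex IV subunit, at 0.41 (SE 0.16, adjusted p = 0.692). The signals of the probe set used were low, with 59.2, 50.9 and 59.2 in wake MI and 40.5, 29.3 and 46.6 in sleep MI. How well this probe set reads Cox7c was not tested. Ndufb1, an accessory subunit of complex I, was at -0.47 (95% interval -0.97 to 0.02), the widest interval of the 83 genes in this comparison. On the higher side followed Sdhc at 0.15 (adjusted p = 0.814) and Cox8c at 0.19 (adjusted p = 0.852). On the lower side followed Sdha at -0.15 (adjusted p = 0.814) and the accessory subunit Ndufb5 at -0.15 (adjusted p = 0.836). The members' median was -0.03 against 0.01 for all genes, and 59 of 83 lay below 0, as did 3938 of all 8101 genes. The sign of this median was not stable: it was 0.01 with quantile normalization and 0.01 without wake MI replicate 2, and -0.09 without wake MI replicate 1.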

How the data were processed

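Each array gave 1 intensity per probe set, deposited by the authors as a linear signal and made with MAS5 per the submitters' processing notes. Neither its settings nor detection calls were found in these sources. The mean signal after trimming 2% at each end was 150.1 on all arrays, so they had been scaled. Of 22690 probe sets, 64 were controls, and of the others 20380 had 1 symbol, 691 several and 1555 none in the platform annotation. Each gene took its probe set with the highest mean log2(signal + 16). Genes with a mean signal above 16.8, the 40th percentile, were tested (8101 genes). The filter used the mean over all 12 arrays.

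Differences of log2 values were tested with limma 3.58.1 in R 4.3.3 (1 mean per group, intensity trend, 8 residual degrees of freedom, two-sided, Benjamini-Hochberg adjustment). All 6 comparisons came from 1 fit, and those that share a group are not independent. The labels describe the 3 mice of a group as biological replicates, and 3 arrays a group limit the precision. No arrays were identical, and correlations within a group were 0.981 to 0.990. Python 3.11.15 and matplotlib 3.10.9 served for summaries and figures.

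The members, gene lists and tests were chosen with earlier results of these data known. Genes named are those called in a comparison, or up to 3 per direction with the smallest unadjusted p where fewer were called, the isoform genes and complex II, members whose probe sets differ in sign or call, and up to 3 called genes per direction from each other list. The rule also named the members with the highest and lowest signal of each complex, which was not used because signals of different probe sets are not comparable. Others, such as array-wide values, were chosen after their values were seen. Alternatives changed the constant, the filter, the normalization, the probe set rule and the variance model, or added a replicate block or the beta-actin ratio, or left out each array in turn. Promoters came from RefSeq (GRCm38.p6).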

Additional observations from a re-analysis of the deposited data

Results flagged for a closer look

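Sdhc, a membrane anchor of complex II, stood out because its MI and sham arrays separated in opposite directions at the 2 times. All 3 wake MI arrays lay above all 3 wake sham arrays, and all 3 sleep MI arrays lay below all 3 sleep sham arrays. The wake effect minus the sleep effect was 0.34 on the log2 scale (SE 0.13), and limma's test of this difference did not pass (adjusted p = 0.382). Such opposite separation was found for 45 of the genes tested (0.555%). With the mean of its probe sets the difference was -0.07.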

How the results depend on the processing

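Over both times 3 genes were called. The count was 6 with quantile normalization (all lower, with 21.2% of all genes called) and 6 with probe sets averaged per gene (1 higher, Atp5a1, and 5 lower, with 22.9%). It was 0 with the beta-actin ratio in the fit (8.3%), and 1 to 6 with each array left out (16.2% to 22.2%). The wake count of 3 was 11 with quantile normalization (3 higher, 8 lower, with 18.5% of all genes called) and 6 with probe sets averaged (1 higher, 5 lower, with 18.8%). It was 0 when the beta-actin ratio was fitted (3.38%), and 0 to 6 with each array left out (10.4% to 18.7%). The sham count of 1 was 0 with no level filter (0.605% of all genes called), the mean of probe sets (0.899%) or variances without a trend (1.32%). It was also 0 with the replicate block (1.22%) or the beta-actin ratio (0.506%), and 0 to 1 with each array left out (0.37% to 2.79%). The cause was not tested. The counts of sleep MI against sleep sham, wake MI against sleep MI and the difference of MI effects were 0 in all 22 alternatives. The labels do not say that replicate numbers pair the mice. The median correlation of deviations was -0.01 over 18 same-number pairs (-0.18 to 0.25) and -0.04 over 36 others (-0.20 to 0.28). Since these ranges overlap widely, the check cannot exclude pairing. With the replicate block the counts were 3 over both times (20.8% of all genes called), 3 in wake (17.5%) and 0 between sham hearts (1.22%). Values that turned sign were Atp5d in sleep hearts (0.13 became -0.0038 without sleep sham replicate 2, and ranged up to 0.2228 with other arrays left out) and, with the mean of probe sets, Sdhc between sham hearts (0.0267), Sdhc between MI hearts (-0.0415), Sdhc (-0.0682) and Sdhd (0.0869) in the difference of MI effects, and Gabpa over both times (0.0083, an alternative added after seeing the data). Over all named results, 1221 kept direction and side of the threshold, 125 lost the call, 7 gained one and 6 turned sign. Weak signals near background limit the dim genes, since no detection calls were used.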
